A study of Mus musculus with 3 samples.

Results

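The 7 genes described here encode proteins that neutrophils pack into their secondary (specific) and tertiary (gelatinase) granules, or close companions of those proteins: Ltf, Camp, Ngp, Lcn2, Cd177, Chil3 and Mmp8. They were picked by gene symbol, with their values in these libraries already known, and all 7 were found among the 26970 genes of the deposited table. Expression was measured by RNA sequencing of mandibular condyles, the cartilage-capped bony heads of the lower jaw, from C57BL/6 mice at 4 months of age. The WT library (Dspp+/+) carried both copies of Dspp, the gene for dentin sialophosphoprotein, the library labelled HE came from Dspp+/- mice with 1 copy deleted in all tissues, and the library labelled HO came from Dspp-/- mice. Each genotype had 1 library. According to the methods, the WT and the Dspp+/- library each held pooled condyles of 3 animals, with cartilage and subchondral bone left joined. The pool behind the Dspp-/- library is not described in the sources used here. With 1 library per genotype, no difference could be tested against the spread between mice, and every difference below is one between single libraries.

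Neutrophils mature in bone marrow and fill their granules in sequence. Promyelocytes make the enzymes of primary (azurophil) granules, myelocytes and metamyelocytes then make secondary granule proteins, and tertiary granules follow in band cells, so each class of transcripts marks a stage of maturation and most of these transcripts decline before the cell reaches the blood. The transcription factor C/EBP epsilon (Cebpe) is needed for the secondary granule genes, and mice or people without it have neutrophils that lack these granules. In the jaw, marrow fills the spaces between the trabeculae of the subchondral bone, and a dissected condyle therefore holds marrow cells beside cartilage and bone.

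The 250 bases before the transcription start are shown for the 4 genes of the set that held a C/EBP-like motif. This motif was sought because secondary granule genes are known to depend on a C/EBP factor. The sequences are RefSeq's (GRCm38.p6), matched by symbol for all 7 genes, and run 5′ to 3′ on the strand of the gene. Capitals mark matches to TTGCNNAA, a C/EBP-like motif (TTNNGCAA on the other strand), or to GAGGAAG, a PU.1-like motif (CTTCCTC on the other strand).
Ltf, chr9:111019042-111019291, plus strand: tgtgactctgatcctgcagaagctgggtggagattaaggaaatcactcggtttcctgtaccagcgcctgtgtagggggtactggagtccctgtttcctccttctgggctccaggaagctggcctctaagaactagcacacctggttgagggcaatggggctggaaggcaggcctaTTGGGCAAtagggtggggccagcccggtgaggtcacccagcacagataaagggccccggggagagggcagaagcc
Ngp, chr9:110419558-110419807, plus strand: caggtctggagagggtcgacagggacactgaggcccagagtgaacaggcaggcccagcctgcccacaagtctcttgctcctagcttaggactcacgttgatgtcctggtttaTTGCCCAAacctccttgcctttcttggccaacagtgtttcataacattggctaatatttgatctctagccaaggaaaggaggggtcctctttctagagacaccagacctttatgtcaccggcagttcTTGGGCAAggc
Lcn2, chr2:32387740-32387989, minus strand: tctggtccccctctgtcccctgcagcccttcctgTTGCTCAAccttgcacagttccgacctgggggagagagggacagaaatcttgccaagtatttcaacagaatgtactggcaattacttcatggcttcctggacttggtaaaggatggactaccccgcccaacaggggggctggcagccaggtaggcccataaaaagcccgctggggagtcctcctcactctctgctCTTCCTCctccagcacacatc
Mmp8, chr9:7558179-7558428, plus strand: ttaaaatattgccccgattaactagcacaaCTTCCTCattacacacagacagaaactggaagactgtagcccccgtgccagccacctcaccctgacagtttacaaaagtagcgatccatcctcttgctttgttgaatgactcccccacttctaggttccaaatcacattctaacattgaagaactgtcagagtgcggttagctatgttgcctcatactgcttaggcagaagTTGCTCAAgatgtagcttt

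Ltf held TTGGGCAA from base 75 before the start, and Ngp held the same letters from base 11 and their reverse complement, TTGCCCAA, from base 138. Lcn2 and Mmp8 both held TTGCTCAA, from base 216 and from base 19. Camp, Cd177 and Chil3 had no match to these letters in the window. The C/EBP-like motif was thus found in 4 of 7 windows, and 9.56% of the 32851 promoter windows in the RefSeq table held it. The PU.1-like motif was found in Lcn2 and Mmp8, where it did not overlap the other motif, and 10.6% of all windows held it. A match of letters is a description of the sequence and does not show binding.

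All 7 granule genes were several-fold higher in both mutant libraries than in WT, and 6 of the 7 were highest in Dspp-/-. Values are given as FPKM, fragments scaled to gene length and to the size of the library, which allows levels to be compared between genes. Depth was similar, with 20241576 fragments in WT condyles, 23613621 in Dspp+/- condyles and 22253158 in Dspp-/- condyles, so that even Cd177, the lowest of the set, was counted with 369 fragments in WT. The 7 genes together took 0.0466% of the WT fragments, 0.195% of those in Dspp+/- and 0.241% of those in Dspp-/-.

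**Figure D1:**
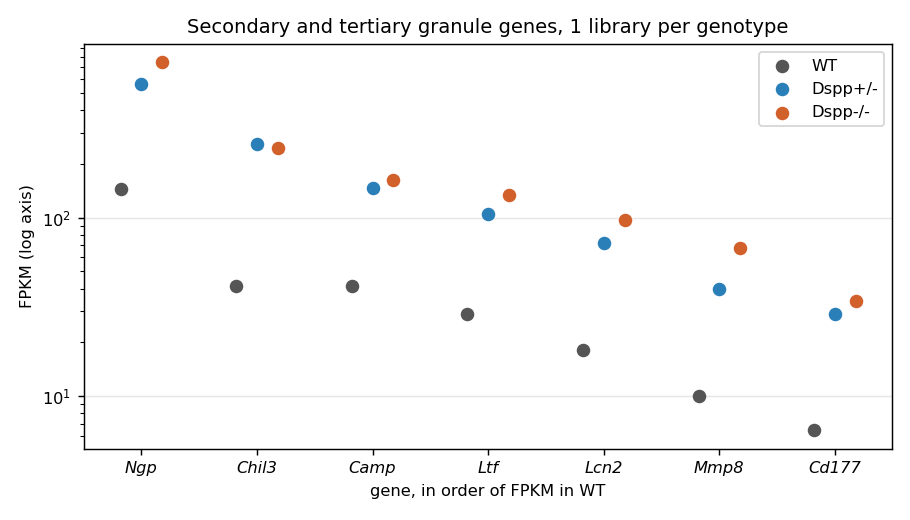
Level of each of the 7 granule genes (FPKM, log axis) in the WT, Dspp+/- and Dspp-/- library, with 1 point per library and the genes ordered by their level in WT. Ngp is the highest gene and Cd177 the lowest in each library, every mutant point lies above its WT point, and Chil3 is the gene whose Dspp+/- point (259 FPKM) lies above its Dspp-/- point (245 FPKM).

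Among the antimicrobial proteins of the granule matrix, Ngp was the most abundant. Ngp, neutrophilic granule protein, is related to the cathelicidins by its cystatin-like fold, and its gene lies on chromosome 9 from 110248815 to 110252080. This position and those that follow are the authors' table's, on a build that differs from the GRCm38 of the promoter sequences. Ngp had 145 FPKM in WT condyles, 562 in Dspp+/- condyles and 744 in Dspp-/- condyles, which moved it from rank 195 of all genes in WT to rank 47 and rank 31. Camp, the only cathelicidin of the mouse, is the precursor of the membrane-lytic peptide CRAMP, and its gene lies on chromosome 9 from 109676447 to 109678685. Camp had 41.3 FPKM in WT condyles, 147 in Dspp+/- condyles and 163 in Dspp-/- condyles. It showed the smallest differences from WT of the set, with a fold of 3.55 in Dspp+/- (95% Clopper-Pearson interval 3.25 to 3.88) and of 3.95 in Dspp-/- (3.62 to 4.31). These intervals are computed from the fragments and cover counting error alone.

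The iron-withholding proteins were also higher. Ltf, lactoferrin, binds free iron and is the classic marker of secondary granules, with its gene on chromosome 9 from 110848339 to 110871835. Ltf had 28.8 FPKM in WT condyles, 105 in Dspp+/- condyles and 135 in Dspp-/- condyles, and its folds over WT were 3.66 (3.48 to 3.84) and 4.68 (4.46 to 4.91). Lcn2, lipocalin 2, captures the iron-loaded siderophores of bacteria, is made by osteoblasts and epithelia as well, and lies on chromosome 2 from 32274645 to 32278264. Lcn2 had 18.0 FPKM in WT condyles, 72.1 in Dspp+/- condyles and 97.3 in Dspp-/- condyles. Its folds, 4.00 (3.73 to 4.29) and 5.40 (5.04 to 5.79), were close to those of Ngp, 3.87 (3.73 to 4.01) and 5.12 (4.94 to 5.31). The ratio of Ngp to Lcn2 moved least of all 21 pairs of the set, from 8.06 in WT to 7.80 and 7.64.

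The remaining genes of the set encode an enzyme, a surface receptor and a lectin, and the enzyme (Mmp8) and the lectin (Chil3) had the largest folds over WT, in Dspp-/- and in Dspp+/- respectively. Mmp8, neutrophil collagenase, cleaves fibrillar collagens, and its gene lies on chromosome 9 from 7558457 to 7568486, far from the other 3 genes on that chromosome. Mmp8 had 10.04 FPKM in WT condyles, 39.8 in Dspp+/- condyles and 67.6 in Dspp-/- condyles. Its fold over WT was 3.96 (interval 3.59 to 4.37) in Dspp+/- and, in Dspp-/-, 6.73 (interval 6.13 to 7.41), the largest fold in that library, and these intervals do not overlap. Cd177, a glycoprotein anchored in the neutrophil membrane, lies on chromosome 7 from 24443408 to 24459736. Cd177 had 6.42 FPKM in WT condyles, 28.9 in Dspp+/- condyles and 34.1 in Dspp-/- condyles, with folds of 4.50 (4.03 to 5.05) and 5.31 (4.75 to 5.95) over WT. Of its 100-base transcript sequences in GENCODE M21, 1.79% occur in another gene. Chil3 (Ym1), a secreted chitinase-like lectin made by neutrophil precursors and by some activated macrophages, lies on chromosome 3 from 106054870 to 106074880. Chil3 had 41.4 FPKM in WT condyles, 259 in Dspp+/- condyles and 245 in Dspp-/- condyles, and its folds over WT were 6.26 (5.91 to 6.63) and 5.91 (5.58 to 6.26). It was the 1 gene of the set that was not highest in Dspp-/-. Chil4 or Gm6522 holds 4.93% of its 100-base sequences, so a part of its fragments could have been assigned to either of these. Chil4 was not analysed here.

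**Figure D2:**
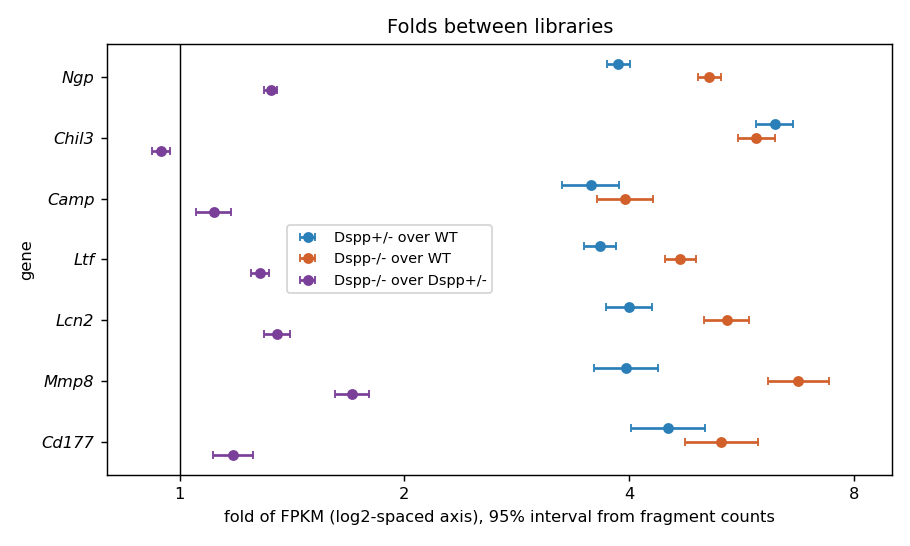
Fold of FPKM between libraries for each of the 7 genes (log2-spaced axis), with 95% Clopper-Pearson intervals from fragment counts, which cover counting error only. The folds over WT lie between 3.55 and 6.26 in Dspp+/- and between 3.95 and 6.73 in Dspp-/-, and the folds of Dspp-/- over Dspp+/- lie between 0.945 and 1.70.

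Across many genes, libraries were set against each other by the log2 ratio of FPKM + 1, for 13026 genes whose mean over the libraries reached 1 FPKM. On this scale, which understates the differences of low genes, 4.88% of the compared genes were at least 2-fold higher in Dspp+/- than in WT and 4.05% in Dspp-/-. All 7 granule genes were past this threshold in both, but they were chosen with these values known and the counts support nothing by themselves. Their median log2 ratio was 1.94 in Dspp+/- and 2.35 in Dspp-/-, and the median of all compared genes was 0.058 and 0.0070. Both comparisons use the same WT library. Of the 13026 genes, 49 had a larger ratio than Chil3 in Dspp+/- and 31 had a larger ratio than Mmp8 in Dspp-/-.

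The Dspp-/- library was compared directly with the Dspp+/- library, a comparison in which 0.852% of genes were at least 2-fold higher. None of the 7 genes reached 2-fold, and 6 were higher in Dspp-/-, with a median log2 ratio of 0.35. Mmp8 differed most, with a fold of 1.70 (1.61 to 1.79). The folds of Ngp and Lcn2 were 1.32 and 1.35, and that of Ltf had an interval of 1.25 to 1.32. Those of Cd177 and Camp were 1.18 and 1.11. Counting-error intervals of these 5 genes all lay above 1, but how many of all genes have such an interval was not counted. Of the 13026 genes compared, 233 had a larger ratio than Mmp8, 827 than Lcn2 and 916 than Ngp. For Ltf, Cd177 and Camp the numbers were 1155, 2190 and 3218. Chil3 was lower in Dspp-/-, with a fold of 0.945 (0.918 to 0.972). The log2 ratio of Chil3, -0.082, was nearer 0 with median-ratio scaling (-0.032) and with scaling without mitochondrial genes (-0.031). With scaling also without hemoglobin, immunoglobulin and muscle genes it was -0.065. The size of this small difference thus depends on the scaling, and it stayed below 0 under each. Whether any of these differences exceeds the spread between pools is unknown. The order of the levels was the same in the 3 libraries: Ngp was followed by Chil3 and Camp, then by Ltf, Lcn2, Mmp8 and Cd177. In WT, Chil3 (41.4 FPKM) and Camp (41.3 FPKM) were at the same level, and in the mutant libraries Chil3 was the higher. Ngp supplied 49.9% of the summed FPKM of the set in the WT library, 46.3% in the Dspp+/- library and 50.1% in the Dspp-/- library, and the share of Chil3 was 14.2%, 21.4% and 16.5%. Over all 21 pairs, the ratio of 2 genes of the set changed between libraries by a factor of 1.05 to 1.80, with a median of 1.35, while each level was at least 3.55-fold that in WT.

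Other neutrophil genes were examined as lists. The 7 primary granule genes had a different pattern from the secondary and tertiary genes: 6 of the 7, Ctsc excepted, were highest in Dspp+/-. Elane, neutrophil elastase, had 4.77 FPKM in WT condyles, 175 in Dspp+/- condyles and 78.3 in Dspp-/- condyles. Mpo, myeloperoxidase, had 3.23, 109 and 38.3 FPKM in the same order. The median log2 ratio of the primary granule list was 4.10 in Dspp+/- and 2.35 in Dspp-/-, with 6 of 7 genes at least 2-fold higher in either. Ctsc, the protease that activates the granule serine proteases and is found in many cell types, was also the gene that did not reach 2-fold, with 10.3, 10.6 and 12.8 FPKM. Between the mutant libraries, 5 of the 7 primary granule genes were at least 2-fold lower in Dspp-/- than in Dspp+/-, where 0.798% of all compared genes were. The list's median log2 ratio there was -1.15 against 0.35 for the secondary and tertiary set. The summed FPKM of the 7 secondary and tertiary genes was 12.6 times that of the primary granule list in WT, 2.86 times in Dspp+/- and 8.56 times in Dspp-/-. Ngp exceeded Elane 30.5-fold in WT, 3.22-fold in Dspp+/- and 9.51-fold in Dspp-/-.

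Genes of late neutrophils followed the secondary and tertiary set more closely. Of 20 genes listed, 18 reached a mean of 1 FPKM, and each of these exceeded WT at least 2-fold in both mutant libraries. Their medians, 1.87 and 2.23, lay near those of the set, 1.94 and 2.35. S100a9, a subunit of the cytosolic protein calprotectin, had 232 FPKM in WT condyles, 916 in Dspp+/- condyles and 1339 in Dspp-/- condyles. Ly6g, the surface antigen used to identify mouse neutrophils, had 2.99, 11.6 and 17.5 FPKM. Csf3r, the receptor for G-CSF, was highest in Dspp+/-, with 4.24, 28.8 and 22.5 FPKM. The summed FPKM of the 7 granule genes stood at 0.798 times that of S100a8 and S100a9 in WT, at 0.833 times in Dspp+/- and at 0.648 times in Dspp-/-. This ratio moved far less between libraries than the ratio to the primary granule list.

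**Figure D3:**
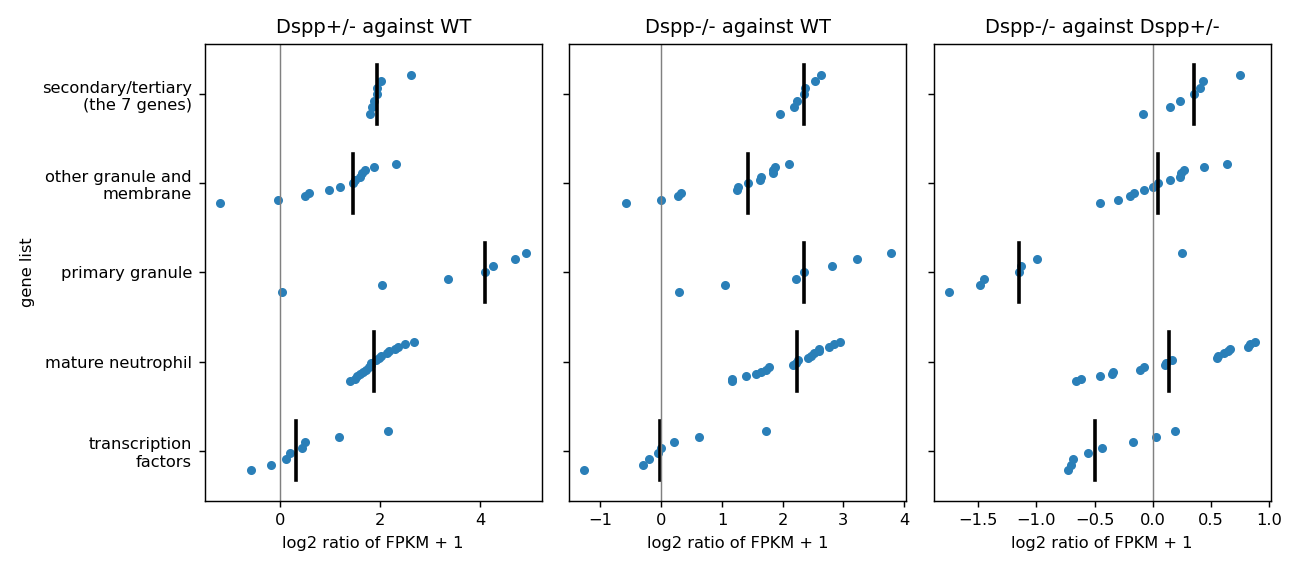
Log2 ratio of FPKM + 1 for each compared gene (points) and the median (black bar) of 5 neutrophil gene lists, for Dspp+/- against WT, Dspp-/- against WT and Dspp-/- against Dspp+/-. In the third panel the primary granule list lies at a median of -1.15 and the 7 secondary and tertiary genes at 0.35.

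The other genes linked to secondary and tertiary granules or their membranes were less uniform. Of 13 such genes, 8 were at least 2-fold higher and 1 was at least 2-fold lower in Dspp+/-, and 9 were higher and 0 lower in Dspp-/-. Of all compared genes, 2.86% were at least 2-fold lower in Dspp+/- and 1.37% in Dspp-/-. Hp, haptoglobin, had 19.2 FPKM in WT condyles, 62.2 in Dspp+/- condyles and 62.0 in Dspp-/- condyles. Cybb, the catalytic subunit of the phagocyte NADPH oxidase, had 7.08, 28.8 and 33.9 FPKM, while its partner Cyba, which is more widely expressed, had 27.7, 39.4 and 35.0 FPKM. Pglyrp1, a peptidoglycan-binding granule protein, had 5.19, 19.0 and 21.1 FPKM. Olfm4, which marks a subset of neutrophils, was counted with 15, 195 and 230 fragments. Ptx3, a long pentraxin also made by stromal cells, was nearly level at 1.64, 1.56 and 1.64 FPKM. Mmp9, gelatinase B, is the namesake enzyme of tertiary granules and is also one of the main proteases of osteoclasts. Mmp9 did not follow the set, with 552 FPKM in WT condyles, 239 in Dspp+/- condyles and 371 in Dspp-/- condyles. The 4 osteoclast markers Ctsk, Acp5, Oscar and Dcstamp were lower beside it, with a summed FPKM of 1647, 536 and 899.

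Of 8 transcription factors of the granulocyte line, Cebpe was the one at least 2-fold higher in both mutant libraries. Cebpe had 1.63 FPKM in WT condyles, 10.7 in Dspp+/- condyles and 7.68 in Dspp-/- condyles. Irf8, a factor that favours monocytes over granulocytes, was past 2-fold in Dspp+/- alone, with 2.20, 6.23 and 3.90 FPKM. Cebpd was lower, with 29.8, 19.7 and 11.8 FPKM, and past 2-fold in Dspp-/-. Cebpa, Cebpb, Gfi1, Spi1 (PU.1) and Runx1, several of which are used by other cells of the condyle too, stayed within 2-fold of WT. Spi1 had 16.3, 17.8 and 15.7 FPKM.

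Receptors, partners and inhibitors of the granule proteins did not move with them as a group. Of the 9 compared, 2 were at least 2-fold higher in each mutant library, and these were Fpr2 and Prtn3, which neutrophils make themselves. At least 2-fold lower were 2 in Dspp+/-, Slc22a17 and Timp1, and 0 in Dspp-/-. Among all compared genes, 4.88% and 4.05% were at least 2-fold higher, and 2.86% and 1.37% at least 2-fold lower. Fpr2, a receptor that cathelicidin peptides activate, had 2.52 FPKM in WT condyles, 12.4 in Dspp+/- condyles and 22.8 in Dspp-/- condyles. Prtn3, proteinase 3, listed as a partner of Cd177, had 2.91, 73.9 and 26.4 FPKM. Slc22a17, a receptor for lipocalin 2, was lower, with 5.60, 2.22 and 2.37 FPKM. Timp1, an inhibitor of collagenases, was at 57.4 FPKM in WT condyles, 19.6 in Dspp+/- condyles and 33.6 in Dspp-/- condyles. It exceeded Mmp8 5.72-fold in WT and stood at 0.494 and 0.497 times Mmp8 in the mutant libraries. Timp2, also listed, had 375, 192 and 267 FPKM and stayed above Mmp8 in every library. Timp3 had 47.2, 32.9 and 52.1 FPKM, above Mmp8 in WT and below it in both mutant libraries. Lrp2, another lipocalin 2 receptor, had no more than 3 fragments in any library.

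Relatives of the granule genes that other cells express were not higher as a set. Mmp13, the collagenase of hypertrophic chondrocytes and osteoblasts, had 649 FPKM in WT condyles, 239.9 in Dspp+/- condyles and 487 in Dspp-/- condyles. It exceeded Mmp8 64.6-fold in WT, 6.03-fold in Dspp+/- and 7.21-fold in Dspp-/-, so Mmp13 was the more abundant of the 2 collagenase genes in every library. Trf, the serum transferrin related to lactoferrin, had 33.2, 30.7 and 37.0 FPKM. Chil1, a chitinase-like gene that neutrophils and chondrocytes express, had 128 fragments in WT condyles, 411 in Dspp+/- condyles and 343 in Dspp-/- condyles. On the scale of FPKM + 1 it was the 1 gene among the 5 relatives compared past 2-fold higher in Dspp+/-, and in Dspp-/- it fell just short, at a log2 ratio of 0.997, although its fold of FPKM there was 2.44 (1.98 to 3.01).

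Camp, Ngp and Ltf lie near each other on chromosome 9, with 570.1 kb between Camp and Ngp and 596 kb between Ngp and Ltf. Of the 20 compared genes between Camp and Ltf, leaving out Ngp, 0 were at least 2-fold higher than WT in either mutant library. Among all compared genes the shares were 4.88% in Dspp+/- and 4.05% in Dspp-/-, so 0 of 20 is near the background. At least 2-fold lower were 2 of the 20 in Dspp+/- and 3 in Dspp-/-, beside 2.86% and 1.37% of all compared genes. Pth1r, the receptor for parathyroid hormone on bone and cartilage cells, was among the lower genes in each, with 164 FPKM in WT condyles, 60.5 in Dspp+/- condyles and 76.6 in Dspp-/- condyles. The closest gene to Ngp, Klhl18, had 2.58, 3.31 and 2.78 FPKM. Over the 60 compared genes within 250 kb of any of the 7 genes, 4 were at least 2-fold higher in Dspp+/- and 2 in Dspp-/-, and the background shares are 4.88% and 4.05%. Cd79a, a B cell gene, and I830077J02Rik were past 2-fold in both mutant libraries.

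**Figure D4:**
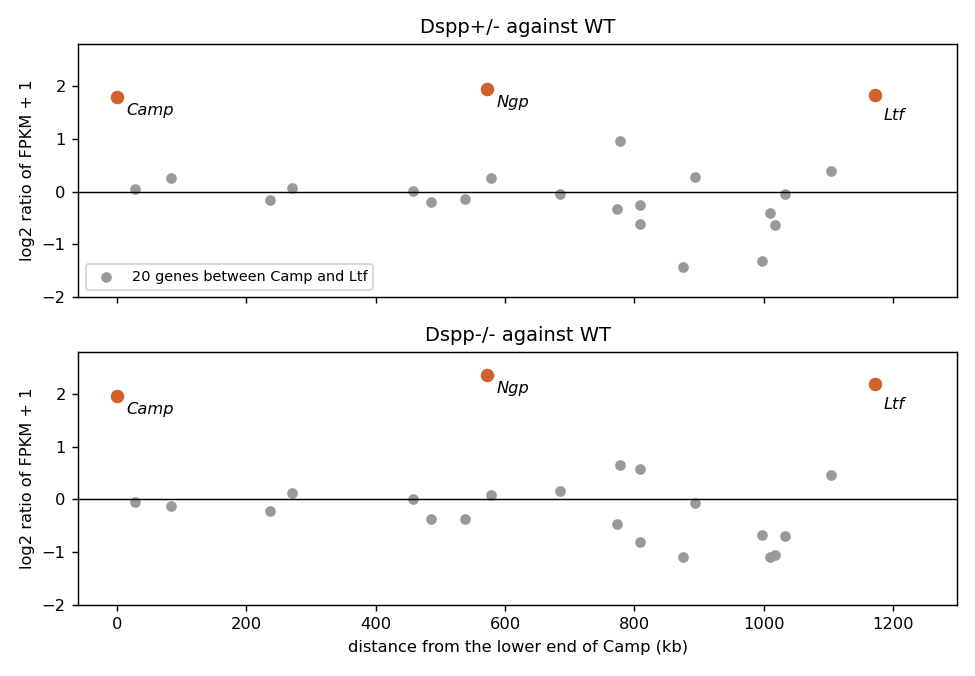
Log2 ratio of FPKM + 1 against WT for Camp, Ngp, Ltf and the 20 compared genes between Camp and Ltf on chromosome 9, by distance from the lower end of Camp in kb, in Dspp+/- (top) and Dspp-/- (bottom). The 3 granule genes lie between 1.80 and 2.35, and each of the 20 other genes lies below 1.

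The genes whose pair of log2 ratios lay nearest to the medians of the set, among 7126 other genes whose mean reached 5 FPKM, were Hbb-bt, Wfdc21, S100a9, Hbb-bs, Cybb and Slfn1. Likeness was measured as the distance over both ratios, which share the WT library, and ran from 0.12 to 0.25 for these 6. Wfdc21, S100a9 and Cybb are neutrophil genes, and Hbb-bt and Hbb-bs encode adult beta globin of red cells. Hbb-bt had 22.3 FPKM in WT condyles, 85.1 in Dspp+/- condyles and 109.9 in Dspp-/- condyles.

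Markers of other cells moved beside the granule genes, and their part in these differences was not tested. The summed FPKM of 6 neutrophil markers was 401 in the WT library, 1644 in the Dspp+/- library and 2559 in the Dspp-/- library. All 6 were at least 2-fold higher in both mutant libraries, as were all 5 markers each of neutrophil precursors, eosinophils and red cells. Of all compared genes, 4.88% were at least 2-fold higher in Dspp+/- and 4.05% in Dspp-/-. The neutrophil and precursor markers were all counted above already, among the late neutrophil and the primary granule genes. Eosinophil markers went from a sum of 6.55 FPKM to 156 and 144. Of 5 B cell and 4 platelet markers, 4 each were at least 2-fold higher in both mutant libraries. Of 5 T cell markers the 1 that could be compared, Cd4, was not. Of 4 muscle markers 0 were at least 2-fold higher in either, and 3 were higher than WT in Dspp+/-. The other, Myh4, was at least 2-fold lower there, with 124, 18.2 and 111 FPKM. Macrophage and monocyte markers had sums of 173, 184 and 173, but the single genes went in different directions. Of the 8, 5 were higher than WT in Dspp+/- and 4 in Dspp-/-. Ly6c2 (1.97, 31.9 and 22.7 FPKM) and Ccr2 (1.54, 10.1 and 7.59 FPKM) were at least 2-fold higher in both. Csf1r was lower in both, with 43.2, 25.1 and 33.2 FPKM, and 0 of the 8 were at least 2-fold lower. Epithelial markers summed to 7.35, 4.63 and 4.36 FPKM, most of it Epcam (6.50, 3.92 and 3.66 FPKM), and Krt14 was at 0 fragments in WT and in Dspp-/-. The markers of the condyle itself were present and lower in the mutant libraries: chondrocyte markers summed to 1579, 449 and 697 FPKM, and osteoblast markers to 9940.3, 2631 and 5206 FPKM. In bulk tissue, more cells of a type and more RNA per cell cannot be told apart, nor can a larger part of marrow in a pool and a change within the marrow. Xist, a transcript of female cells, had 0.00551 FPKM in WT condyles, 28.5 in Dspp+/- condyles and 26.5 in Dspp-/- condyles, while Y-linked genes were counted in every library, with Ddx3y at 22.5, 11.1 and 15.1 FPKM and Eif2s3y at 9.61, 5.43 and 7.25 FPKM. RNA of males was thus present in all 3 pools, and a different mix of sexes in the mutant pools and the genotype cannot be told apart. Dspp itself was not analysed here, so its level was no check on the genotype labels.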

How the data were processed

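Condyle RNA of 1 library per genotype was sequenced. The authors deposited 1 table for 26970 genes whose unit is not named, and the deposited values were read as FPKM because value times merged exon length (GENCODE M21) gave whole fragments, within 0.02, for 98.4% (WT), 98.4% (Dspp+/-) and 98.5% (Dspp-/-) of genes below 100 fragments. The submitters' processing notes list FastQC 0.11.5, HISAT2 2.1.0, StringTie 1.3.3b and DESeq 1.28.0, without roles, and the build hg38, although the libraries are from mice. Filters and gene annotation are not given in the sources used here. The labels mention triplicates, but each genotype has a single value per gene. Just 589 genes have their GENCODE M21 (GRCm38) start and end in the table.

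Depth and fragments were recovered from these steps for the 26652 genes with a GENCODE length, by code first tested on simulated data. Folds have 95% Clopper-Pearson intervals, which cover counting error only, and a fold against a library at or under 3 fragments was not given. Log2 ratios used a pseudocount of 1 FPKM, for genes whose mean reached 1 FPKM. No test between genotypes was possible. The members and lists were chosen with earlier results of these data known. Genes named are the 7, genes of the lists, the 6 nearest in pattern (mean of at least 5 FPKM) and changed neighbours within 250 kb, some of which are not reported here. The alternatives, 9 in number, were 2 pseudocounts, 2 filters, 3 scalings and 2 thresholds. Motifs were sought on both strands. Protein sequences were not analysed here. Computation was in Python 3.11.15 with scipy 1.17.1, pandas 2.3.3 and numpy 2.4.6, and figures were drawn in matplotlib 3.10.9.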

Additional observations from a re-analysis of the deposited data

How the results depend on the processing

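All 7 genes stayed at least 2-fold higher than WT in both mutant libraries under the 5 alternatives of pseudocount and scaling, with single log2 ratios from 1.57 to 2.72 in Dspp+/- and from 1.78 to 2.75 in Dspp-/-. Between the mutant libraries, 30 of 35 such values were above 0 and the 5 below 0 were those of Chil3. The median log2 ratio against WT moved beyond counting error with a pseudocount of 5, to 1.71 in Dspp+/- and 2.15 in Dspp-/-, and in Dspp-/- with scaling without mitochondrial genes (2.43) or also without hemoglobin, immunoglobulin and muscle genes (2.46). The median of Dspp-/- against Dspp+/- moved to 0.40 with median-ratio scaling and to 0.41 without mitochondrial genes. Counts of genes at least 2-fold higher, 636 in Dspp+/- and 527 in Dspp-/-, were 971 and 836 with a pseudocount of 0.1, 185 and 136 with one of 5, and 281 and 228 with a mean of at least 5 FPKM, where 7133 genes were compared. At 1.5-fold they were 1501 and 1152, and at 4-fold 124 and 103, each of 13026 compared genes. Of those past 4-fold, 2 and 6 were granule genes of the set, which was chosen with these values known. By construction, ratios of low genes shrink under a larger pseudocount, and a stricter filter leaves fewer of these genes. No paired analysis was possible because each genotype has 1 library, and no replicate could be left out for the same reason.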
